A study of Mus musculus with 12 samples.

Results

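The genes described here are 29 members of the fatty acid oxidation programme that the nuclear receptor PPAR-alpha controls, taken by symbol from a table of 55487 genes. All 29 were in the table and all passed the count filter that left 17890 genes for testing. They were sorted by role into 2 regulators, 2 genes of uptake and activation, 16 of mitochondrial steps, 3 of peroxisomal steps, 2 CYP4A genes and 4 other targets. The libraries hold messenger RNA of whole kidneys from B6 males aged 30 weeks that have X-linked Alport syndrome, in which the type IV collagen network of the glomerulus is defective. The mice ate feed holding fisetin, a plant flavonol, at 500 ppm (n = 6) or control feed (n = 6). Both groups carried the same disease, and the labels name Col4a5 in every title and give the genotype field as HET in both. That entry does not match males with an X-linked disease, so the exact genotype of both groups is uncertain. No healthy kidney was analysed here, so each value compares diseased kidneys with diseased kidneys.

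PPAR-alpha is a transcription factor that fatty acids and fibrate drugs activate. It binds DNA together with the retinoid X receptor, at repeats of an AGGTCA-like hexamer, and in rodents it raises enzymes that carry fatty acids into mitochondria and peroxisomes and break them down there. Proximal tubule cells, the most abundant cells of the kidney cortex, draw much of their energy from this pathway. In mice the Cyp4a genes, whose products hydroxylate the far end of fatty acids, are among its most responsive targets.

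Every fisetin library held more Cyp4a14 than any control library, by 1.56-fold in the fitted mean, while its neighbour Cyp4a10 and the enzymes of mitochondrial and peroxisomal oxidation did not show a difference that the test could separate from the spread between libraries. In edgeR's quasi-likelihood fit, with Benjamini-Hochberg adjustment over all genes, 0 of 29 members passed the threshold of 0.05, as did 0% of all genes tested. At an unadjusted p under 0.05 the count was 1 of 29, Cyp4a14, where 14.6% of all genes tested had such a p. By DESeq2, an alternative test, Cyp4a14 passed (adjusted p = 0.00661), and 0.855% of all genes did. Log2 fold changes were negative in 21 of 29 members, against 49.8% of all genes tested, and the median was -0.05 for the members and 0.00 for all genes. That direction depended on the scale: 17 of 29 were negative with total count scaling and 11 of 29 on log2(TPM + 1), where the median of all genes was 0.05. The count was 25 of 29 without fisetin 6 and 15 of 29 without control 3.

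**Figure D1:**
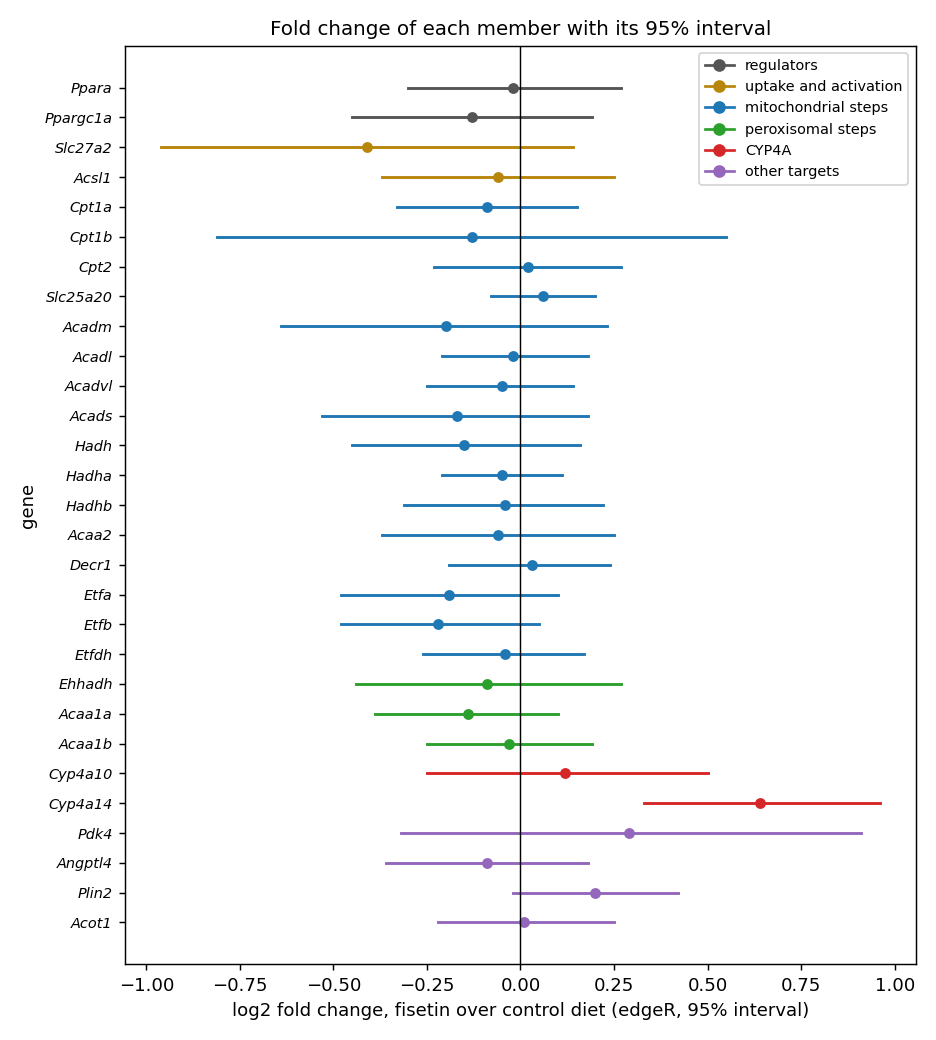
Log2 fold change of each of the 29 members, fisetin over control diet, from edgeR with batch as a term, with 95% intervals as lines and colours for roles. The interval of Cyp4a14, from 0.33 to 0.96, lies above 0, and the intervals of the other 28 members cross 0.

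The sequences of the CYP4A genes are shown first because the largest difference lay in 1 of a family of close relatives. Cyp4a14 lies on chromosome 4 (115486200 to 115496142, minus strand, GRCm38), Cyp4a10 at 115518264 to 115533649 and Cyp4a31, which is no member, at 115563649 to 115579015, both on the plus strand. The first 90 coding bases of each are given from GENCODE M21 transcripts, with capitals where a base differs from Cyp4a14 at the same position.
Cyp4a14: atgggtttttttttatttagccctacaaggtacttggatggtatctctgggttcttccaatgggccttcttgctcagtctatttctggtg
Cyp4a10: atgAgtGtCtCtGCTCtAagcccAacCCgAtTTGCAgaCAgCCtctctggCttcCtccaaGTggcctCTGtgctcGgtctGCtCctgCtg
Cyp4a31: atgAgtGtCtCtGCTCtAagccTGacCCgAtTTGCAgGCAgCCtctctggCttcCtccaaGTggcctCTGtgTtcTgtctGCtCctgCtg
Cyp4a10 differed from Cyp4a14 at 34 of these bases and Cyp4a31 at 37. Over the whole coding sequence Cyp4a14 was 75.4% identical to Cyp4a10, whereas Cyp4a10 and Cyp4a31 were 96.6% identical. Of all 50-base stretches in Cyp4a14 transcripts, 0.235% also occurred in a transcript of another gene, against 29.8% for Cyp4a10, most of them shared with Cyp4a32. The value of Cyp4a10 is therefore less certain than that of Cyp4a14, although Cyp4a32 itself had a highest count of 6.

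Promoter windows from RefSeq (GRCm38.p6, 250 bases before to 50 after the annotated start) were found for 23 of the 29 members. The full repeat, AGGTCA followed by any 1 base and AGGTCA again, read on both strands, was in 0 of the 23 genes' windows and in 0.0396% of all 32851 windows. The single hexamer AGGTCA was in the windows of 5 of the 23 genes, Acadm, Acadvl, Cpt1a, Plin2 and Slc27a2, and in 16.3% of all windows. Members were counted by gene, with a hit in any window of the gene, and all windows singly, so these figures are in unlike units. The hexamer is part of the full repeat, and a match is a description of the letters only. The window of Slc27a2, the member with the most negative fold change, is shown with its hexamer in capitals, on the opposite strand and 220 bases before the start (chr2:126552774-126553073, plus strand).
Slc27a2: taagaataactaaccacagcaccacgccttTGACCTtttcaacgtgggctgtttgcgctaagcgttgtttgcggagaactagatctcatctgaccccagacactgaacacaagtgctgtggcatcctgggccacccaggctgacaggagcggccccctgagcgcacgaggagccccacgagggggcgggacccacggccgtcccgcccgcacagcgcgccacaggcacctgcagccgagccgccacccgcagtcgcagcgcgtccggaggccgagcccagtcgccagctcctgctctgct
Hadha and Hadhb, the alpha and beta subunits of the mitochondrial trifunctional protein, lie head to head, and their windows share 228 bases (chr5:30155003-30155230, shown on the plus strand, the strand of Hadhb).
Hadha and Hadhb: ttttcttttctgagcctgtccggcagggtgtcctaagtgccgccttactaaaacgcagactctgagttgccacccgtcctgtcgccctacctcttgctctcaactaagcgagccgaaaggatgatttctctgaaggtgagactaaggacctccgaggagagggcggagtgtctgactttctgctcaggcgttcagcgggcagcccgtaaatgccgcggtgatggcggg

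Total counts per library were 16310214 to 24451821 on fisetin and 18638748 to 22396857 on the control diet, and each member had at least 140 counts in every library. Each of the 2 labelled batches held 3 libraries of each diet. Nothing in the labels ties the libraries to separate animals, and the p-values therefore cover only the spread among these samples, which may be technical. Markers of kidney cells were present in every library, for example Lrp2 of the proximal tubule at 2044 to 5344 CPM (counts scaled to a common library size) on fisetin and 3150 to 5673 CPM on the control diet. Fisetin 5 stood apart in some markers of other tissue. Alb, which liver cells make, had a highest value of 737 CPM there and a median of 3.63 CPM on fisetin, against 2.27 to 5.48 CPM on the control diet. The sum of all 7 liver markers was less distinct. It was 759 to 1711 CPM on fisetin, highest in fisetin 5, and 921 to 1491 CPM on the control diet. Of the 6 tested, 3 had positive and 3 negative fold changes, and 1 of the negative ones had an unadjusted p under 0.05. Of all genes tested, 6.34% were lower at such a p. Ucp1 of brown fat reached 102 CPM in fisetin 5, against 1.61 to 27.8 CPM on the control diet. Values without fisetin 5 or without fisetin 6, which was highest for most members, are given beside the results they move most.

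The members differed widely in level. On the deposited FPKM scale, which allows for transcript length, Slc27a2 was highest at 617 ± 211 FPKM on fisetin and 773 ± 178 FPKM on the control diet (SD, n = 6 each). Etfb followed at a mean of 322 FPKM over the 12 libraries and Acadm at 287 FPKM, and the gap between these neighbours was within 1 SD. The lowest was Cpt1b, the muscle and brown fat isoform of the carnitine entry enzyme, at a mean of 6.51 FPKM, against 119 FPKM for Cpt1a, the isoform of liver and kidney. Ppara itself stood at 23.4 FPKM and Ppargc1a at 17.9 FPKM, so the regulators were near the lower end of the order.

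**Figure D2:**
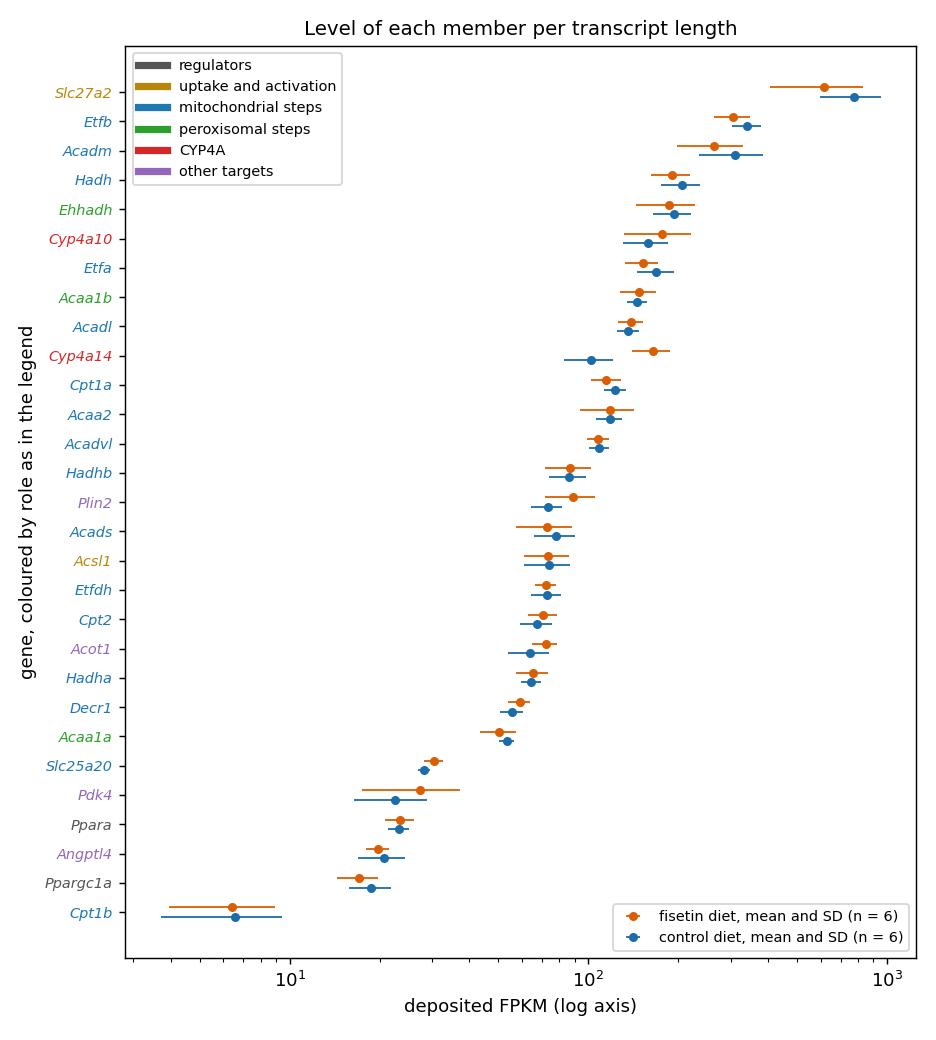
Deposited FPKM of the 29 members on a log axis, with the mean and SD of 6 fisetin and 6 control libraries and gene names coloured by role. Slc27a2 is highest and Cpt1b lowest, and on this log axis the means of the diets lie farthest apart for Cyp4a14.

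The regulators come first in the pathway. Ppara, on chromosome 15 (85734983 to 85802819), had 43.3, 48.2 and 60.3 CPM as lowest, median and highest on fisetin, against 40.1, 50.7 and 63.3 CPM on the control diet. The ranges lay almost on top of each other, and the log2 fold change was -0.02 ± 0.13 (SE; edgeR adjusted p = 0.953). Ppargc1a encodes PGC-1 alpha, a coactivator of mitochondrial genes, and had 59.0, 73.8 and 104 CPM on fisetin against 63.6, 85.6 and 107 CPM on the control diet. Its log2 fold change was -0.13 ± 0.15, with a 95% interval of -0.45 to 0.19, and was -0.04 without fisetin 5 and -0.23 without fisetin 6.

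Fatty acids enter the pathway through transport and activation. Slc27a2 encodes a fatty acid transporter with acyl-CoA synthetase activity that is abundant in the proximal tubule. It had 750, 1193 and 2248 CPM on fisetin, against 1170, 1735 and 2392 CPM on the control diet, and 5 of 6 fisetin libraries lay below the control mean. The diets overlapped, with fisetin 6 among the highest libraries and fisetin 5 the lowest of all. The log2 fold change was -0.41 ± 0.25 (edgeR adjusted p = 0.426), -0.27 without fisetin 5 and -0.62 without fisetin 6. It was close in both batches, at -0.40 in batch 1 and -0.42 in batch 2. Limma-voom with sample quality weights called it lower, at -0.60 (adjusted p = 0.0399), but that setting called 2492 of all 17890 genes tested. Acsl1, the main long-chain acyl-CoA synthetase of oxidative tissues, had 191, 229 and 321 CPM on fisetin against 199, 230 and 325 CPM on the control diet, and a log2 fold change of -0.06 ± 0.14.

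Mitochondrial steps begin with the carnitine shuttle. Cpt1a, which forms acylcarnitine at the outer membrane and sets the pace of the pathway, had 328, 394 and 512 CPM on fisetin and 377, 444 and 508 CPM on the control diet. These ranges overlapped for most of their length, and its log2 fold change was -0.09 ± 0.11, or -0.02 without fisetin 5 and -0.16 without fisetin 6. Slc25a20, the carrier that takes acylcarnitine across the inner membrane, was the member that varied least between libraries, with 40.1 to 48.9 CPM on fisetin and 38.3 to 45.8 CPM on the control diet (log2 fold change 0.06 ± 0.06). Cpt2, which releases the acyl group inside, had a log2 fold change of 0.02 ± 0.12. Cpt1b had 9.85 to 24.6 CPM on fisetin and 7.39 to 22.1 CPM on the control diet, a log2 fold change of -0.13 ± 0.31 that was -0.33 without fisetin 5, its highest library. A gene on the same strand, Gm44502, covers 81.4% of the exonic bases of Cpt1b, so its counts are uncertain.

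The acyl-CoA dehydrogenases take the first oxidation step, each for its own chain length. Acadm, for medium chains, had 263, 339 and 540 CPM on fisetin against 266, 434 and 525 CPM on the control diet. Its highest library was fisetin 6 and its lowest fisetin 1, so the fisetin libraries spanned the whole control range, and the log2 fold change was -0.20 ± 0.20. It was -0.11 without fisetin 5 and -0.32 without fisetin 6. Acads, for short chains, was at -0.17 ± 0.16, or -0.10 without fisetin 5 and -0.30 without fisetin 6, while Acadl and Acadvl, for long and very long chains, were at -0.02 ± 0.09 and -0.05 ± 0.09. The exons of Acadvl overlap those of Dvl2 on the opposite strand over 42.9% of their bases, and strand use in counting is not given in the sources used here.

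Electrons from these enzymes pass to the electron transfer flavoprotein, made of the products of Etfa and Etfb, and on to the respiratory chain through that of Etfdh. Etfb had the lowest p among mitochondrial members, with 121, 145 and 211 CPM on fisetin against 140, 183 and 204 CPM on the control diet. Of 6 fisetin libraries 5 lay below the control mean, the exception being fisetin 6. The log2 fold change was -0.22 ± 0.12 (edgeR unadjusted p = 0.101, adjusted p = 0.399). Without fisetin 6 it was -0.32, with an unadjusted p = 0.00888 and adjusted p = 0.107 by edgeR. Limma-voom with sample quality weights called it lower, at -0.32 (adjusted p = 0.0346), in a setting that called 2492 of all 17890 genes tested. A gene on the same strand, Gm45233, covers 53.0% of the exonic bases of Etfb. Etfa was at -0.19 ± 0.13 and Etfdh at -0.04 ± 0.10.

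The remaining turns of the spiral are made by hydratases, hydroxyacyl-CoA dehydrogenases and thiolases. Hadha had 139, 149 and 174 CPM on fisetin and 136, 159 and 175 CPM on the control diet. Hadhb, whose promoter window shares the stretch printed above, had 128, 140 and 190 CPM on fisetin and 127, 154 and 191 CPM on the control diet. The log2 fold changes of this pair were -0.05 ± 0.07 and -0.04 ± 0.12. Control 1 was the lowest library and control 3 the highest for both genes. Hadh, of the shorter chains, was at -0.15 ± 0.14, the thiolase gene Acaa2 at -0.06 ± 0.14, and Decr1, which handles unsaturated chains, at 0.03 ± 0.10. Of the 16 mitochondrial members, 13 had negative fold changes and 3 positive, against 49.8% negative among all genes tested. Their median was -0.06 log2, with a range of -0.22 to 0.06.

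Peroxisomes shorten very long and branched fatty acids. Ehhadh, the bifunctional enzyme and a strong PPAR-alpha target in liver, had 349, 473 and 731 CPM on fisetin against 409, 523 and 680 CPM on the control diet. The fisetin libraries held both the lowest and the highest value, and the log2 fold change was -0.09 ± 0.16, or 0.02 without fisetin 5 and -0.22 without fisetin 6. The peroxisomal thiolase genes Acaa1a and Acaa1b were at -0.14 ± 0.11 and -0.03 ± 0.10. Acaa1a was at -0.06 without fisetin 5 (edgeR unadjusted p = 0.474) and at -0.23 without fisetin 6 (edgeR unadjusted p = 0.0426, adjusted p = 0.181). Without fisetin 6, 25.7% of all genes had an unadjusted p under 0.05. The coding sequences of Acaa1a and Acaa1b were 96.5% identical. Of their 50-base stretches, 17.1% in Acaa1a and 39.6% in Acaa1b also occurred in another gene. The division of reads between them is therefore uncertain.

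**Figure D3:**
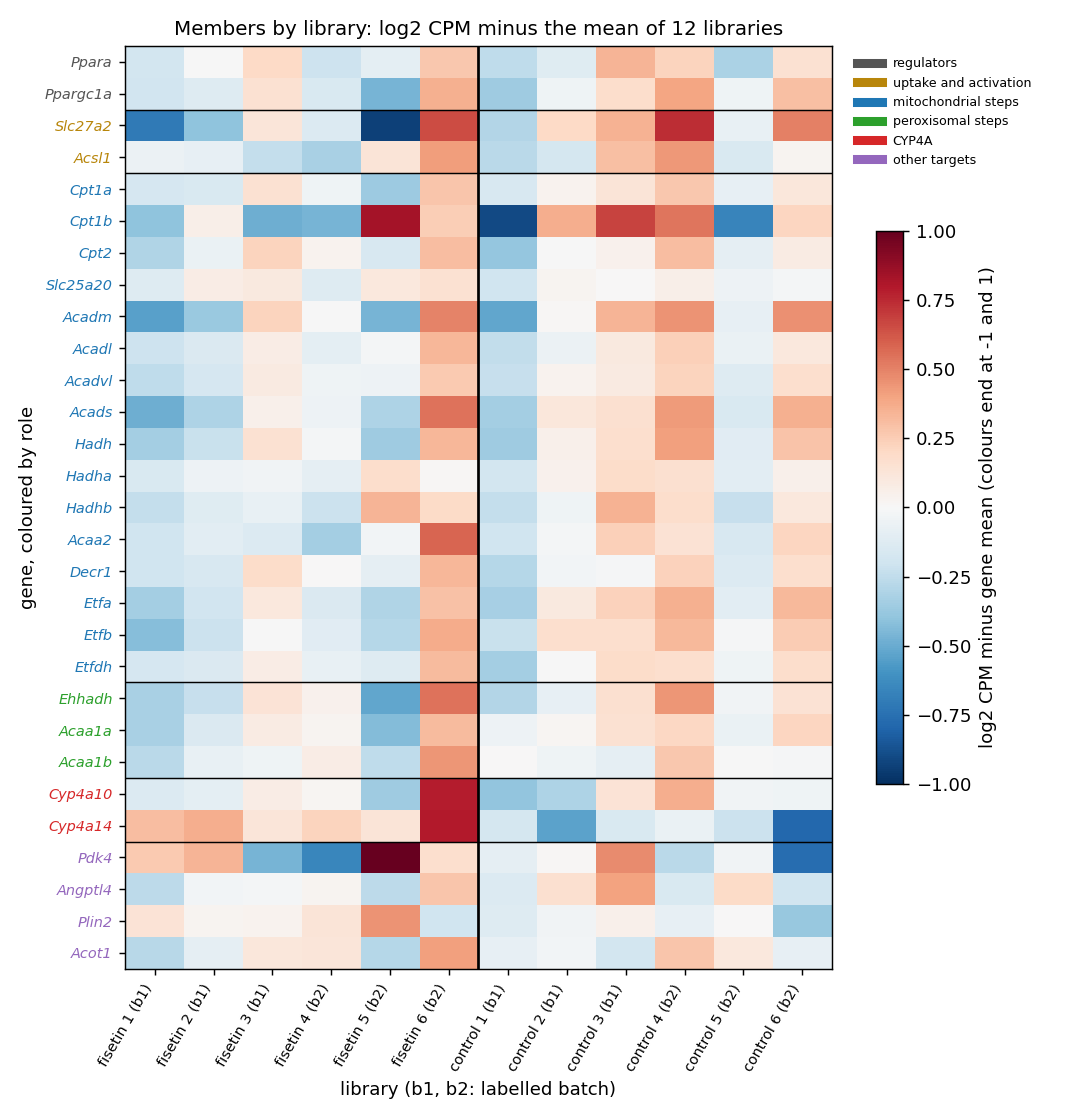
Log2 CPM of each member in each library minus that gene's mean over 12 libraries, fisetin libraries on the left and control libraries on the right. Fisetin 6 and control 3, 4 and 6 are high across most mitochondrial and peroxisomal rows, fisetin 1 and control 1 are low, and Cyp4a14 separates the diets.

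The CYP4A pair held the largest fold change of the 29. Cyp4a14 had 302, 334 and 482 CPM as lowest, median and highest on fisetin, against 161, 242 and 266 CPM on the control diet. The lowest fisetin library lay above the highest control library, which was the case for 1 of 29 members and 0.47% of all genes tested. The opposite order, every fisetin library below every control library, was found for 0 of 29 members and 0.425% of all genes, and either order for 0.894%. The mean was 352 ± 67.2 CPM on fisetin against 226 ± 40.3 CPM on the control diet (SD, n = 6 each). The log2 fold change was 0.64 ± 0.14, with a 95% interval of 0.33 to 0.96 (edgeR unadjusted p = 0.000815, adjusted p = 0.235). It was 0.54 in batch 1 and 0.74 in batch 2, and ranged from 0.52 (without fisetin 6) to 0.70 with 1 library left out. Over 22 alternative settings the adjusted p ran from 0.00661 to 0.749, and 2 settings called the gene, DESeq2 and limma-voom with sample quality weights. Of all 17890 genes tested, these settings called 153 and 2492.

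Cyp4a10, the nearest member of the same cluster, had 231, 288 and 509 CPM on fisetin against 224, 287 and 380 CPM on the control diet. The medians were nearly equal and the diets overlapped, with fisetin 6 far above the other fisetin libraries. The log2 fold change was 0.12 ± 0.17, with a 95% interval of -0.25 to 0.50, and was -0.05 without fisetin 6. The ratio of Cyp4a14 to Cyp4a10 within a library, which scaling for depth does not touch, was 0.947, 1.18 and 1.32 on fisetin and 0.562, 0.789 and 1.10 on the control diet. This ratio was looked at after the values of both genes were known, and its ranges overlapped, with control 1 the highest control library. On the log2 scale it differed by 0.55, with an SD of 0.22 among fisetin and 0.32 among control libraries. The ratio of Cyp4a10 to Cyp4a31 had a median of 1.41 on fisetin and 1.41 on the control diet.

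**Figure D4:**
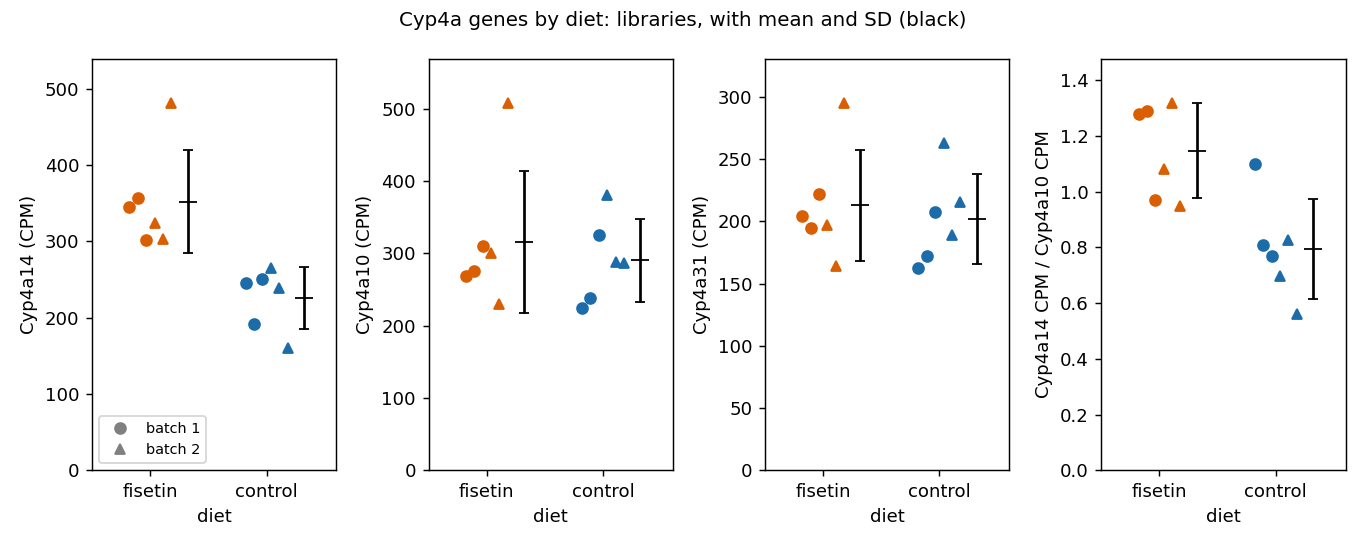
CPM of Cyp4a14, Cyp4a10 and Cyp4a31 and the ratio of Cyp4a14 to Cyp4a10 by diet, 1 point per library, circles for batch 1 and triangles for batch 2, with the mean and SD in black. All 6 fisetin points of Cyp4a14 lie above all 6 control points, and in the other 3 panels the diets overlap.

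Other targets act around the pathway. Pdk4, a kinase that spares glucose by switching off pyruvate dehydrogenase, had 35.3, 64.4 and 112 CPM on fisetin against 32.8, 53.2 and 77.1 CPM on the control diet. Its highest library was fisetin 5, and the log2 fold change of 0.29 ± 0.28 was 0.02 without that library. It was -0.07 in batch 1 and 0.66 in batch 2, a difference with an edgeR unadjusted p = 0.204 for the interaction. Plin2, which coats lipid droplets, had 102, 123 and 159 CPM on fisetin against 89.2, 112 and 120 CPM on the control diet. Fisetin 5 was again the highest, 5 of 6 fisetin libraries lay above the control mean, and the log2 fold change was 0.20 ± 0.10 (edgeR unadjusted p = 0.0744, adjusted p = 0.372), or 0.11 without fisetin 5. Without fisetin 5 the edgeR unadjusted p was 0.204. Without fisetin 6, the lowest fisetin library for this gene, the log2 fold change was 0.25 (edgeR unadjusted p = 0.0173, adjusted p = 0.128). In that setting 25.7% of all genes had an unadjusted p under 0.05. Angptl4, a secreted inhibitor of lipoprotein lipase, was at -0.09 ± 0.12 and Acot1, a cytosolic acyl-CoA thioesterase, at 0.01 ± 0.11.

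The intervals show how much of a change these data could have missed. The 95% interval of the log2 fold change had a median width of 0.27 to either side, from 0.14 to 0.68. In 24 of 29 members the interval lay within 1.5-fold in both directions, and the others were Slc27a2, Cpt1b, Acadm, Cyp4a14 and Pdk4. The interaction of diet with batch passed for 0 of 29 members and the batch term for 0 of 29 by edgeR's adjusted p, as for 0% of all genes in both tests. At an unadjusted p under 0.05 the interaction was found for 2.1% and the batch term for 3.38% of all genes tested.

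Most members were high or low in the same libraries, on either diet. Fisetin 6 was the highest library for 17 members, control 1 the lowest for 9 and fisetin 5 the lowest for 8. The mean of the 16 mitochondrial members was 7.14 ± 0.20 log2 CPM on fisetin and 7.22 ± 0.23 on the control diet (SD, n = 6 each), and ranged from 6.90 (fisetin 1) to 7.50 (fisetin 6) on fisetin and from 6.86 (control 1) to 7.46 (control 4) on the control diet. The SD within diet and batch was 0.247 log2 for the median member, from 0.12 for Slc25a20 to 0.626 for Cpt1b. The median was 0.123 log2 over the 9558 genes at least as abundant as the lowest member and 0.186 over all genes tested. The summed level of 15 proximal tubule markers was also high in fisetin 6, at 16101 CPM, and control 4, at 16573 CPM. Control 2, 3 and 6 and fisetin 3 came next in both orders. Their sums were 12171 to 15402 CPM and their mitochondrial means 7.22 to 7.37 log2 CPM. Fisetin 1 was low in both, at 8761 CPM and 6.90 log2 CPM. Control 1, with the lowest mitochondrial mean, had a sum of 10128 CPM. The sums of fisetin 5, 1 and 2 were lower, at 7575, 8761 and 9645 CPM. By diet this sum had a lowest, median and highest of 7575, 10038 and 16101 CPM on fisetin and 10128, 13325 and 16573 CPM on the control diet. Of the 15 markers, 2 had an unadjusted p under 0.05, against 14.6% of all genes tested. Negative fold changes were found for 14, against 49.8% of all genes tested. Other tubule segments leaned the same way, with 8 of 10 further proximal, 8 of 8 thick limb and 7 of 8 distal tubule markers negative. Of 8 intercalated cell markers 4 were negative. In whole kidney, fewer cells of a type and less RNA per cell cannot be told apart, and the part of the markers in these results was not tested.

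**Figure D5:**
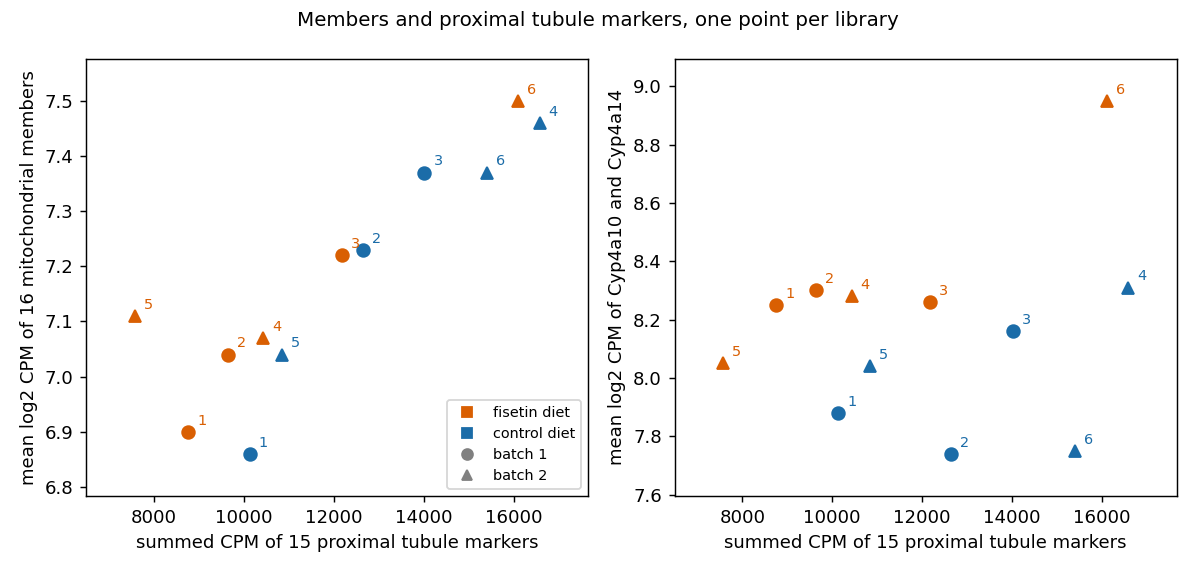
Mean log2 CPM of the 16 mitochondrial members (left) and of Cyp4a10 and Cyp4a14 (right) against the summed CPM of 15 proximal tubule markers, 1 numbered point per library. The mitochondrial mean is lowest in fisetin 1 and control 1 and highest in fisetin 6 and control 4, with the diets intermixed. In the right panel fisetin 5, with the fewest marker counts, lies above 4 control points. The mean plotted there includes Cyp4a14, which separates the diets. Cyp4a10 alone was at 231 CPM in fisetin 5, its lowest fisetin value, against 224 to 380 CPM on the control diet.

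Markers of other cells that use or store fat also differed between libraries. The summed level of 9 adipocyte markers was 32.7, 149 and 537 CPM as lowest, median and highest on fisetin and 36.7, 86.9 and 455 CPM on the control diet, highest in fisetin 5 and control 3. Pck1 was left out of that sum because the proximal tubule makes it in amounts that swamp the other genes. With Pck1 the sum had a median of 2642 CPM on fisetin and 1432 CPM on the control diet. All 9 tested adipocyte markers had positive fold changes, where 49.8% of all genes tested had negative ones. Pck1 itself had an unadjusted p under 0.05, and 0 of the other 8 did, where 14.6% of all genes tested had such a p. The adipocyte sums below leave Pck1 out. Cpt1b was also highest in fisetin 5, at 24.6 CPM, and control 3, at 22.1 CPM, while control 4, with a sum of 104 CPM, came next for Cpt1b. It was lowest in control 1, where the sum was 70.1 CPM. Pdk4 likewise had its highest fisetin value in fisetin 5 and its highest control value in control 3. Of 10 skeletal muscle markers 1 was abundant enough to be tested, and their sum stayed between 0.382 and 1.80 CPM on fisetin and 1.06 and 2.06 CPM on the control diet. All 12 immune cell markers had positive fold changes, where 49.8% of all genes tested had negative ones. Of the 12, 4 had an unadjusted p under 0.05, and 8.23% of all genes were higher at such a p. The immune sum was 270 to 679 CPM on fisetin against 266 to 477 CPM on the control diet. All 8 markers of collecting duct principal cells had negative fold changes, each with an unadjusted p under 0.05, and 6.34% of all genes were lower at such a p. DESeq2 called 2 of the 8, against 0.855% of all genes, and 2 did not overlap between the diets, against 0.894% of all genes. The part of these markers in the members' values was not tested.

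Wider lists of the same pathway held 118 tested genes beyond the members. Of these, 42 had positive and 76 negative fold changes, where 49.8% of all genes tested had negative ones. At an unadjusted p under 0.05 there were 8 higher and 7 lower, against 8.23% and 6.34% of all genes tested, and 0 passed the edgeR adjustment. Among the receptor's partners, Rxra, the retinoid X receptor that pairs with PPAR-alpha, was at -0.13 ± 0.08. Ppard, which encodes the sister receptor PPAR-delta, had 22.9, 27.6 and 36.2 CPM on fisetin against 31.8, 38.3 and 53.3 CPM on the control diet. All 6 fisetin libraries were below the control mean although the ranges overlapped, and the log2 fold change was -0.56 ± 0.14 (edgeR unadjusted p = 0.00188, adjusted p = 0.256; DESeq2 adjusted p = 0.0247). The corepressor gene Ncor1 was at -0.12 ± 0.06 and the deacetylase gene Sirt1 at 0.13 ± 0.07. In this list 1 of 19 tested genes had an unadjusted p under 0.05, against 14.6% of all genes tested. DESeq2 called 1 of the 19, against 0.855% of all genes.

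Of 15 tested genes of uptake and activation, an unadjusted p under 0.05 was found for 1 higher and 2 lower. Among all genes tested these shares were 8.23% and 6.34%. Acsf2, an acyl-CoA synthetase, had a log2 fold change of 0.41 ± 0.12, Slc27a4 one of -0.17 ± 0.08, and Acsm2, a medium-chain synthetase of the proximal tubule, one of -0.36 ± 0.24. The second of the lower genes was Acsl6, present at under 1 CPM in the mean of either diet. The fatty acid transporter gene Cd36 was at -0.02 ± 0.17, and Fabp1 was too low to be tested, with a highest count of 72. The list of 19 further mitochondrial genes also held Nudt7, whose product acts in peroxisomes. At an unadjusted p under 0.05, Nudt7 (0.25 ± 0.10) was higher and Hsd17b10 (-0.20 ± 0.07) and Ivd, of leucine breakdown (-0.42 ± 0.19), lower. These were 3 of 19 genes, where 14.6% of all genes tested had such a p. The carnitine acetyltransferase gene Crat was at -0.13 ± 0.12.

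Of 25 further genes listed as peroxisomal, not counting Nudt7, 20 had negative fold changes, against 49.8% of all genes tested. Among the 25, 1 had an unadjusted p under 0.05, against 14.6% of all genes tested. That gene was Acot3, a thioesterase, with 8.39, 12.5 and 18.3 CPM on fisetin against 7.74, 8.79 and 10.4 CPM on the control diet and a log2 fold change of 0.55 ± 0.16. Catalase (Cat) was at -0.04 ± 0.11, Hacl1 at 0.19 ± 0.09 and Pipox at -0.20 ± 0.10. For each of these peroxisomal genes the ranges of the diets overlapped.

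Among genes of ketone body metabolism, Oxct1, which activates ketone bodies for use in mitochondria, had 222, 342 and 679 CPM on fisetin against 390, 585 and 731 CPM on the control diet. The ranges overlapped, 5 of 6 fisetin libraries lay below the control mean, and the log2 fold change was -0.64 ± 0.24 (edgeR unadjusted p = 0.0224, adjusted p = 0.303). Bdh1, which interconverts ketone bodies, was at -0.68 ± 0.26 (edgeR unadjusted p = 0.022, adjusted p = 0.303).

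Among 11 tested relatives and partners of the CYP4A genes, 1 had an unadjusted p under 0.05, against 14.6% of all genes tested. That gene was Cyp4v3 (0.30 ± 0.11). Cyp4b1, of the same enzyme family, had 385, 946 and 2389 CPM on fisetin against 1261, 1842 and 2965 CPM on the control diet and a log2 fold change of -0.83 ± 0.41. Cyp4a12a, the male-typical member of the family, ranged from 7.93 to 145 CPM on fisetin and 31.1 to 141 CPM on the control diet, and its value of -0.61 ± 0.67 was not separable from 0. Aldh3a2, which oxidises fatty aldehydes, was at -0.23 ± 0.16 and Ephx2, an epoxide hydrolase, at -0.13 ± 0.15. Of 21 tested genes of lipid droplets and other targets, 16 had positive fold changes, where 49.8% of all genes tested had negative ones. Pdk1 (0.26 ± 0.09), Ucp2 (0.24 ± 0.08) and Txnip (0.17 ± 0.07) had an unadjusted p under 0.05, and 8.23% of all genes were higher at such a p.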

How the data were processed

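Per the submitters' processing notes, fastp, STAR, featureCounts and DESeq2 were used, with builds GRCm38 and mm10. Their versions and roles, the annotation release and the strand setting: not given in the sources used here. For every library the authors deposited estimated counts, TPM and FPKM, as the column names state. The deposited estimated counts carry no depth scaling, and since 13.91% of positive values had a fractional part (tolerance 1e-06) they were rounded for testing. TPM and FPKM were deposited already scaled for length and depth. All 36 value columns were matched to samples by name.

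Diet was taken from the titles and batch from the labels, and libraries were numbered in accession order, which pairs nothing. Genes passing filterByExpr (minimum count 10) were scaled with TMM and fitted in R 4.3.3 with edgeR 4.0.16 (glmQLFit, robust; glmQLFTest, two-sided) with terms for batch and diet. P-values were adjusted over all 17890 genes (Benjamini-Hochberg, threshold 0.05). Standard errors were derived from each fold change with its F statistic, and 95% intervals from the model's degrees of freedom. DESeq2 1.42.0 and limma 3.58.1 were alternatives. Log2 CPM used a prior count of 2. All 66 pairs of libraries differed by 7.065 to 111.4 times what counting noise gives, so none looked like a copy. The fit was tested on simulated data.

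The 29 members and all lists were chosen with earlier results of these data known. Every member is named, in each wider list the 3 genes with the smallest p whose average log2 CPM is 0 or more, and fixed genes (Cat, Fabp1, Cd36, Rxra, Ephx2, Cyp4a12a and Crat), except that some genes this rule picks are not reported here; for cell type markers, at most the first 2 of a list. Ucp1, Acsl6, Cyp4a31 and Pck1 were named after their values were seen. Coordinates and transcripts come from GENCODE M21 on GRCm38 and promoter windows from RefSeq.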

Additional observations from a re-analysis of the deposited data

Results flagged for a closer look

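In 58 groups of 6 libraries (29 members by diet), 4 held a library whose gap to its nearest neighbour exceeded Dixon's 95% critical value for the group's range, and chance gives such a gap in about 1 in 20 groups. Fisetin 6 was far above the other fisetin libraries for Cyp4a14 (482 CPM, the others 302 to 357 CPM), Cyp4a10 (509 CPM, the others 231 to 311 CPM) and Acaa2 (213 CPM, the others 112 to 139 CPM). Control 4 was far above the other control libraries for Acaa1b (239 CPM, the others 187 to 199 CPM). Without fisetin 6 the log2 fold change of Cyp4a14 was 0.52, that of Cyp4a10 -0.05 and that of Acaa2 -0.20. Fisetin 6 and control 4 also had high sums of proximal tubule markers, 16101 and 16573 CPM, and the part of these markers was not tested.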

How the results depend on the processing

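The number of genes called, 0 by edgeR (2608 at an unadjusted p under 0.05), was 153 by DESeq2, 2492 by limma-voom with sample quality weights and 1 in batch 1 alone, and 0 to 70 with 1 library left out (70 without fisetin 6, 1 without fisetin 4). Members called were 0 by edgeR, 1 by DESeq2 and 3 by limma-voom with quality weights. The members with an unadjusted p under 0.05 were 8 instead of 1 by limma-voom with quality weights, which also called Slc27a2 (-0.60, adjusted p = 0.0399) and Etfb (-0.32, adjusted p = 0.0346) lower, and 1 to 6 with 1 library left out, 6 of them without fisetin 6. Of all genes, 34.8% had such a p with quality weights and 25.7% without fisetin 6, so the share of the members was below that of all genes in both. The median log2 fold change of the members was -0.12 to -0.01 with 1 library left out, and -0.15 to 0.03 over the other settings.

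Signs turned only where the value passed no adjusted threshold, and the cause was not tested. On log2(TPM + 1) and log2(TPM + 0.1) the values were 0.04 and 0.04 for Ppara, 0.03 and 0.03 for Acsl1, Acadvl and Etfdh, 0.02 and 0.05 for Cpt1b, 0.07 and 0.07 for Acadl, 0.05 and 0.05 for Hadha and Acaa1b, 0.04 and 0.04 for Hadhb and Cat, 0.01 and 0.01 for Acaa2, and 0.00 and 0.00 for Cd36. With total count scaling they were 0.03 for Ppara and Acadl, 0.01 for Hadhb and Acaa1b, and 0.02 for Cd36. With quality weights Cpt2 was -0.05 and Decr1 -0.07. In batch 1 alone Ppargc1a was 0.01, Pdk4 -0.07 and Cd36 0.08. In batch 2 alone Cpt1b was 0.19, Cpt2 -0.03, Hadha 0.01, Hadhb 0.10, Acaa2 0.05, Acaa1b 0.03 and Angptl4 0.08. With 1 library left out the ranges that crossed 0 were -0.12 to 0.03 for Acaa1b, -0.20 to 0.01 for Acaa2, -0.08 to 0.02 for Acadl, -0.07 to 0.09 for Acot1, -0.15 to 0.03 for Acsl1, -0.11 to 0.00 for Cat, -0.14 to 0.06 for Cd36, -0.33 to 0.05 for Cpt1b, -0.05 to 0.07 for Cpt2, -0.05 to 0.22 for Cyp4a10, -0.04 to 0.07 for Decr1, -0.22 to 0.02 for Ehhadh, -0.11 to 0.01 for Etfdh, -0.11 to 0.05 for Hadhb and -0.09 to 0.07 for Ppara. Cyp4a14 kept its sign in 22 of 22 settings. The ratio of Cyp4a14 to Cyp4a10, added after the values were seen, was tried only with libraries left out. No paired analysis was possible because the labels give no replicate numbers that groups share.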
